A study of Homo sapiens with 12 samples.

Results

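The CCN genes encode a family of secreted matricellular proteins, and several of them are standard readouts of the transcriptional coactivators YAP and TAZ. The 9 genes described here were CCN1, CCN2, CCN3, CCN4, CCN5, ANKRD1, AMOTL2, YAP1 and WWTR1, out of 60675 Ensembl gene IDs in the deposited table. They were chosen by name as 5 CCN genes, the genes for YAP and TAZ (YAP1 and WWTR1) and 2 further YAP targets, with earlier results of these data known, among them the fold changes of CCN4 and ANKRD1. Their levels and fold changes are therefore given as a description with no test. All 9 were found in the table.

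RNA was sequenced from SW1783, a human astrocytoma cell line, after 24 h of treatment with ACD, a hot water extract of Aconitum carmichaeli Debeaux, at 20, 100 or 500 µg/mL, here the low, medium and high doses. The vehicle was PBS with 2% DMSO, which per the study's methods was also the solvent of the extract stock. The 2% is the content of that solution, and the extract was diluted further in growth medium when added to cells. What diluted the stock for the lower doses is not given. Each of the 4 groups had 3 libraries of this 1 line, and whether these came from separate cultures is not stated, so errors and p-values measure the spread between libraries. Total counts lay between 18863863 and 24200576 per library. Of 9 astrocyte and glioma markers, 5 had a mean of at least 10 normalised counts, and VIM, SOX9, CD44 and SLC1A3 were among them, whereas GFAP, S100B and ALDH1L1 had mean normalised counts of at most 2.79 in vehicle and AQP4 had 0 counts in every library. All 5 were separate between vehicle and the high dose, as were 70.0% of all genes with a mean of at least 10. VIM was higher at the high dose (means of 88412 and 108048) and the other 4 were lower. CD44 went from 56908 to 43678 and SOX9 from 1434 to 1206, while SLC1A3, from 690 to 126, and NES, from 214 to 64.7, were past the 1.5-fold threshold. The 9 markers together summed to 144279 to 152078 normalised counts in vehicle and 152311 to 154029 at the high dose. That sum was mostly VIM and CD44, which differed in opposite directions. The 10 markers of other cell types summed to 3256 to 3418 in vehicle and 4198 to 4487 at the high dose, mostly CD68, and single markers differed in both directions. The means of CD68 were 2864 in vehicle and 3953 with 500 µg/mL and those of MBP 143 and 258, whereas the leukocyte gene PTPRC was lower, at 275 and 84.8. EPCAM, CDH1, KRT5 and CDH5 had means of at most 1.72 in every group. The part of these markers in the results below was not tested.

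YAP and TAZ shuttle between cytoplasm and nucleus. Kinases of the Hippo pathway (MST, encoded by STK3 and STK4, and LATS) phosphorylate them and hold them in the cytoplasm, while actin tension and cell spreading favour their entry into the nucleus. There they bind TEAD factors on DNA and switch on genes such as CCN1 (CYR61), CCN2 (CTGF), ANKRD1 and AMOTL2. CCN proteins act outside the cell through integrins, and CCN1 and CCN2 are known in astrocytoma and in fibrosis. The CCN4 and CCN5 genes were first named as WNT1-inducible genes.

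The TEAD recognition letters are shown first, for those of the 9 genes with a match in a promoter of the RefSeq table. RefSeq promoters (GRCh38.p14) were present for 5 of the 9 genes, with 7 start sites in all, and CCN1, CCN3, CCN4 and CCN5 had no entry. The letters GGAATG were searched on both strands of the 250 bases before each start, and matches are in capitals. The CCN2 stretch (chr6:131951373-131951622, minus strand) and the ANKRD1 stretch (chr10:90921088-90921337, minus strand) are given whole. For AMOTL2 (chr3:134374501-134374526, minus strand, within an annotated exon of another transcript) and YAP1 (chr11:102110275-102110300, plus strand) only the match with 10 bases on each side is given.
CCN2: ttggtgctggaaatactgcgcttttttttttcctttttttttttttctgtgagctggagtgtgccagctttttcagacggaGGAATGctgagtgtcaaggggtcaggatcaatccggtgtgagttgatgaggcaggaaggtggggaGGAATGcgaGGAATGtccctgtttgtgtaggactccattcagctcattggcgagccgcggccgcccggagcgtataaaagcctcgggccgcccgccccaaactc
ANKRD1: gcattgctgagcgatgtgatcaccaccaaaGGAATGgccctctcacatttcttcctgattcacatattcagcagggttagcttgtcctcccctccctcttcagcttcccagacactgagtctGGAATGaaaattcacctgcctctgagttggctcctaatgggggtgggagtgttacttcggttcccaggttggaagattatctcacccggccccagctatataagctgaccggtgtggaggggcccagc
AMOTL2: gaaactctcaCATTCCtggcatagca
YAP1: ggagtgtgcaGGAATGtagcaacttg

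CCN2 held 3 matches, beginning 169, 104 and 95 bases before the start, and ANKRD1 held 2, beginning 220 and 128 bases before it. AMOTL2 had 1 match on the opposite strand at the inner of its 2 start sites, 69 bases before it, and YAP1 had 1 at 162 bases. Of 35116 promoters of the same length, 11.9% held at least 1 match, 0.94% at least 2 and 0.0826% at least 3. ANKRD1 also held the AP-1 letters TGANTCA once, 195 bases before the start, which 6.57% of promoters hold. The SMAD letters CAGAC, found in 38% of promoters, occurred 142 bases before the start of ANKRD1 and, on the opposite strand, 132 bases before it, where the last letter is also the first of the nearer TEAD match. They occurred once in CCN2, 177 bases before the start, and once on the opposite strand at the outer start site of AMOTL2. No match to the CArG box, the site of SRF, lay in these windows, while 1.16% of promoters hold one. WWTR1 held none of these letters. The matches describe letters in the reference genome and are not sites shown to be bound here.

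Normalised counts (counts divided by DESeq2 size factors) are used for one gene across groups, and normalised counts per kilobase of exon for comparing genes. Per kilobase, the vehicle means were 1123 ± 78.9 (SD, n = 3) for CCN1, 849 ± 29 for CCN2 and 610 ± 5.32 for YAP1. They were 219 ± 5.76 for WWTR1, 154 ± 6.7 for AMOTL2, 135 ± 25.4 for ANKRD1, 88.1 ± 3.72 for CCN3, 53 ± 4.39 for CCN4 and 0.985 ± 0.234 for CCN5. CCN1 and CCN2 thus made up most of the CCN transcripts in these cells, and CCN5 was near the limit of detection. In this bulk RNA, fewer cells with a transcript and less of it per cell cannot be told apart.

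**Figure D1:**
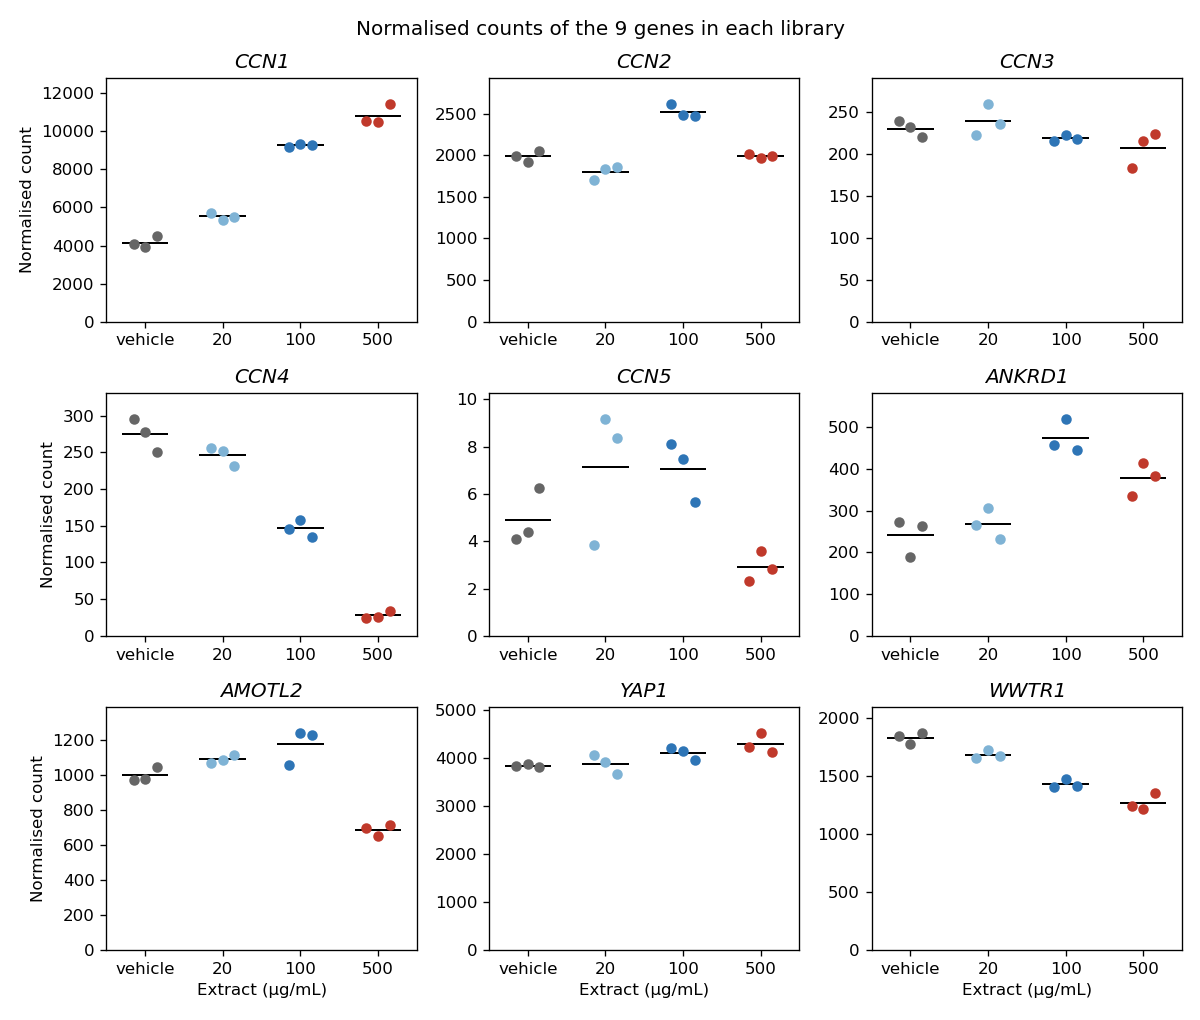
Normalised count of each of the 9 genes (vertical axes start at 0) in each library, by extract dose in µg/mL. Points are libraries and bars are means of 3, and CCN1 climbs from 3923 in its lowest vehicle library to 11403 in its highest high dose library while CCN4 drops from 296 to as low as 24.3.

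CCN1 (ENSG00000142871, chromosome 1, 85580761 to 85584589, GRCh38), an integrin ligand that promotes adhesion and migration, was the one of the 9 genes that was higher at every dose step with all groups separate. The vehicle libraries held 4058, 3923 and 4482 normalised counts, and the low dose libraries 5728, 5357 and 5514. With 100 µg/mL CCN1 was at 9147, 9350 and 9267, and at the high dose at 10512, 10470 and 11403. Every library of a dose lay above every library of the dose beneath it. The log2 fold change against vehicle was 0.41 (SE 0.0434) at the low dose, 1.16 (SE 0.0428) at the medium dose and 1.38 (SE 0.0426) at the high dose. Most of the difference was in place by the medium dose, where CCN1 had 83.9% of its high dose log2 change, and 30.1% was in place at the low dose. For scale, the 1107 genes that were higher at the high dose with a mean of at least 100 had a median of 38.2% at the medium dose (quartiles 26.2% and 49.5%) and of 9.08% at the low dose. By normalised count per kilobase CCN1 ranked 605 among 30211 genes in vehicle and 185 at the high dose.

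CCN2 (ENSG00000118523, chromosome 6, 131948176 to 131951372), the profibrotic relative of CCN1 with the 3 TEAD letters shown above, had another course. Its vehicle libraries held 1993, 1913 and 2047 normalised counts and its low dose libraries 1698, 1839 and 1855. At the medium dose it was at 2609, 2483 and 2474. The high dose libraries, at 2010, 1961 and 1993, were back within the vehicle range. All medium dose libraries lay above all others, and all low dose libraries lay below vehicle. The log2 fold change was -0.14 (SE 0.0468), 0.35 (SE 0.0456) and 0.00 (SE 0.0464) from the low to the high dose, each short of the 1.5-fold threshold. When libraries were scaled by their total counts, the high dose value was -0.11. That scaling moved the median of all genes with a mean of at least 10 by -0.111 at the high dose and -0.112 at the medium dose. Of the CCN2 exon bases, 11.9% are shared with LINC01013 on the opposite strand, and whether RSEM used the strand of the reads is not given in the sources used here.

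The ratio of CCN1 to CCN2 within a library, which no scaling can alter, was chosen after its values were seen and was higher at each dose step. Counts per kilobase of CCN1 to CCN2 stood at 1.32 ± 0.0535 (SD, n = 3) in vehicle, 1.95 ± 0.159 with 20 µg/mL, 2.32 ± 0.0915 with 100 µg/mL and 3.43 ± 0.163 with 500 µg/mL. No library overlapped with those of another group, from 1.29 in the lowest vehicle library to 3.62 in the highest high dose library. Over the 6 CCN genes, CCN1 made up 53.0% ± 1.24 of counts per kilobase in vehicle and 75.4% ± 0.738 at the high dose, and CCN2 40.1% ± 0.672 and 22.0% ± 0.819. The plot of ratios within each library shows this beside the YAP1 to WWTR1 ratio.

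CCN4 (ENSG00000104415, chromosome 8, 133191039 to 133231690), the WNT1-inducible protein also called WISP1, went the other way. It held 296, 278 and 251 normalised counts in vehicle and 256, 252 and 231 at the low dose. The medium dose libraries were at 146, 158 and 135, and the high dose libraries at 24.3, 26.1 and 33.7. The low dose overlapped with vehicle, and each higher dose was separate from the one before. The log2 fold change was -0.16 (SE 0.131), -0.91 (SE 0.138) and -3.28 (SE 0.196). At the high dose 10.3% of the vehicle level was left. In contrast to CCN1, 27.7% of the high dose log2 change was present at the medium dose, against a median of 33.9% over the 1052 genes that were lower at the high dose with a mean of at least 100. Within a library CCN1 was 21.4 ± 3.2 times CCN4 per kilobase in vehicle and 546 ± 68.4 times at the high dose. Its share of the counts per kilobase of the 6 CCN genes was 2.51% ± 0.293 in vehicle and 0.14% ± 0.0195 with 500 µg/mL.

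CCN3 (ENSG00000136999, chromosome 8, 119416446 to 119424434), a growth-restraining CCN protein, overlapped with vehicle at every dose. It lay between 220 and 239 normalised counts in vehicle, 223 and 259 at the low dose, 216 and 223 at the medium dose, and 183 and 224 at the high dose. The lowest low dose library lay just above the highest medium dose library, both at 223 when rounded, and the other pairs of groups overlapped. Its high dose log2 fold change was -0.15 (SE 0.122). CCN5 (ENSG00000064205, chromosome 20, 44714844 to 44728509), which lacks the C-terminal domain of its relatives, had 2 to 9 counts in a library. Its high dose libraries, at 2.31 to 3.6 normalised counts, lay just under the vehicle libraries at 4.1 to 6.24, and with so few counts (log2 fold change -0.73, SE 0.821) no difference was detectable at this depth. CCN6 (ENSG00000112761), the sixth family gene and outside the 9, was also low, with a mean of 8.01 ± 3.54 normalised counts in vehicle and 31 ± 3.78 at the high dose. It rose at the high dose (log2 1.98, SE 0.485, p 0.000159 after DESeq2 adjustment).

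ANKRD1 (ENSG00000148677, chromosome 10, 90912096 to 90921087), a nuclear and sarcomeric ankyrin repeat protein and a sensitive YAP target, peaked at the medium dose. The vehicle libraries held 273, 189 and 262 normalised counts and the low dose libraries 266, 305 and 233, which overlapped. The medium dose libraries were at 457, 520 and 444, and the high dose libraries at 336, 414 and 382. The high dose libraries lay above all vehicle and low dose libraries and below all medium dose libraries. The log2 fold change was 0.16 (SE 0.137), 0.98 (SE 0.133) and 0.65 (SE 0.134). Vehicle replicate 2, at 189, was the lowest of the group, and without it the high dose value was 0.50, under the 1.5-fold threshold. Per kilobase the ratio of ANKRD1 to CCN1 within a library, a ratio chosen after its values were seen, was 0.12 ± 0.0196 in vehicle, 0.106 ± 0.00827 with 100 µg/mL and 0.0722 ± 0.00826 with 500 µg/mL. Only the high dose libraries, at 0.066 to 0.0816, lay below all others. The ANKRD1 fold change was also under 1.5 without high dose replicate 2 (0.58) and with scaling by total counts (0.54).

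AMOTL2 (ENSG00000114019, chromosome 3, 134355347 to 134375479) encodes an angiomotin-like scaffold that binds YAP and actin and is itself a YAP target, a feedback on the pathway. It held 968, 973 and 1046 normalised counts in vehicle and 1065, 1084 and 1112 at the low dose. It held 1058, 1239 and 1227 at the medium dose and 697, 651 and 712 at the high dose. The low and medium dose libraries were above all vehicle libraries, overlapping with each other, and the high dose libraries were below all others. The log2 fold change was 0.13 (SE 0.0673), 0.24 (SE 0.0669) and -0.54 (SE 0.0699), and from the medium to the high dose it was -0.78 (SE 0.0693). With scaling by total counts the high dose value was -0.65, past the 1.5-fold threshold.

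YAP1 (ENSG00000137693, chromosome 11, 102110447 to 102233424) and WWTR1 (ENSG00000018408, chromosome 3, 149517235 to 149736714) encode the paired coactivators YAP and TAZ. YAP1 held 3838, 3884 and 3818 normalised counts in vehicle, 4070, 3921 and 3663 at the low dose, 4211, 4147 and 3956 at the medium dose, and 4229, 4532 and 4130 at the high dose. Neighbouring groups overlapped at each step, and the high dose log2 fold change was 0.16 (SE 0.0425), or 0.05 with scaling by total counts. WWTR1 held 1839, 1776 and 1870 in vehicle, 1652, 1724 and 1668 at the low dose, 1407, 1469 and 1408 at the medium dose, and 1238, 1210 and 1351 at the high dose. Each dose of WWTR1 lay below the one before with no overlap, with log2 fold changes of -0.12 (SE 0.0504), -0.36 (SE 0.0511) and -0.53 (SE 0.0516). Of its high dose log2 change, 67.2% was present with 100 µg/mL and 22.8% with 20 µg/mL. The medians over the downregulated DEGs with a mean of at least 100 were 33.9% and 7.75%. WWTR1 was short of the fold threshold and so outside that set, which was selected for a large high dose change. These shares are therefore not like for like, and nothing is read from them. The high dose value was -0.64 with scaling by total counts, past the 1.5-fold threshold. Per kilobase YAP1 was 2.79 ± 0.0985 times WWTR1 within a vehicle library and 4.51 ± 0.455 times within a high dose library, with no overlap between these groups. YAP1 shares 10.1% and WWTR1 9.05% of exon bases with opposite strand genes.

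**Figure D2:**
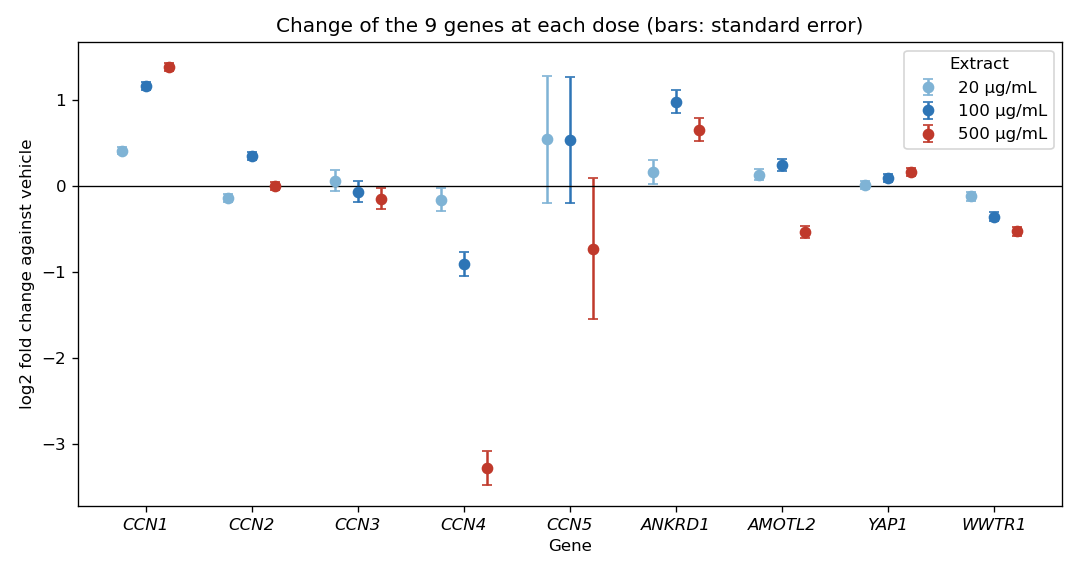
log2 fold change against vehicle (vertical axis) of each gene at 20, 100 and 500 µg/mL, with bars for the standard error of the DESeq2 fit on 12 libraries. CCN1 reaches 1.38 and CCN4 -3.28 at 500 µg/mL, and CCN2, ANKRD1 and AMOTL2 have their highest value at 100 µg/mL.

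A differentially expressed gene (DEG) had a DESeq2 adjusted p under 0.05 and a fold change over 1.5. At the high dose 3 of the 9 genes met it (CCN1 and ANKRD1 higher, CCN4 lower), where 18.2% of all tested genes did (8.66% higher and 9.57% lower). With 100 µg/mL the same 3 of 8 tested genes did, where 3.81% of all tested genes did (2.34% higher and 1.48% lower). At the low dose 0 of 6 tested genes did in DESeq2 and 0 in edgeR, where 0.118% of all did (0.0967% higher and 0.0215% lower), and 3 of the 9 had an unadjusted p under 0.05. The adjustment for 20 µg/mL left out genes with a mean under 263, which took out CCN3, CCN4 and CCN5. From the medium to the high dose CCN4 and AMOTL2 met it, both lower, where 10.2% of all genes did (4.58% higher and 5.61% lower). Since the genes were chosen with these contrasts known, nothing is read from these counts. Of the 8 genes with a mean of at least 10, 4 (CCN1, CCN2, AMOTL2 and WWTR1) had all low dose libraries apart from all vehicle libraries. Of all genes with that mean, 21.7% did. At the medium dose 7 of the 8 were apart from vehicle, against 48.0% of all such genes, and at the high dose 6 of 8, against 70.0%. The upper doses were apart from each other in 6 of 8, against 59.2% of all such genes. Nothing is read from these counts either.

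The genes whose course over the 12 libraries was most like each of the 9 were sought among 11263 others with a mean of at least 100, by Pearson's r of log2 values, which describes these libraries and carries the common effect of dose. AMOTL2 was closest to ACTB (r = 0.987), ACTA2 (0.983) and ACTN4 (0.982), which encode cytoplasmic actin, smooth muscle actin and the actin crosslinker alpha-actinin. In all, 32 genes had an r over 0.95 with AMOTL2. Counts per kilobase of AMOTL2 to ACTB, a ratio chosen after its values were seen, stayed between 0.00414 and 0.00472 over all 12 libraries. ANKRD1 was closest to FLNA (0.927), which crosslinks actin at the cortex, then LIMS1 (0.925), an adaptor of integrin adhesions, and TSEN15 (0.923). CCN2 was closest to SPOCD1 (0.920), PDGFA (0.891) and ZNF281 (0.884), and no gene passed 0.95 with CCN2, CCN3 or ANKRD1.

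CCN1 was closest to KCNG1 (0.994), NALCN (0.989) and PDIA4 (0.988), among 182 genes with an r over 0.95. The first is a potassium channel subunit, the next a sodium leak channel and the last an endoplasmic reticulum chaperone. KCNG1 went from 192 ± 3.77 normalised counts in vehicle to 765 ± 66.8 at the high dose. CCN4 was closest to SPDL1 (0.997), PCDH18 (0.996) and CCNA2 (0.996), of which SPDL1 and CCNA2 act in mitosis and the cell cycle, and 1167 genes had an r over 0.95 with it. WWTR1 was closest to NONO (0.986), SNX4 (0.985) and SMIM3 (0.982), and 230 genes had an r over 0.95 with it. YAP1 was closest to RPS3 (0.955), MCM3AP (0.946) and KRT10-AS1 (0.937), and CCN3 to OAS3 (0.934), ATP5MF-PTCD1 (0.918) and ASAP3 (0.908).

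**Figure D3:**
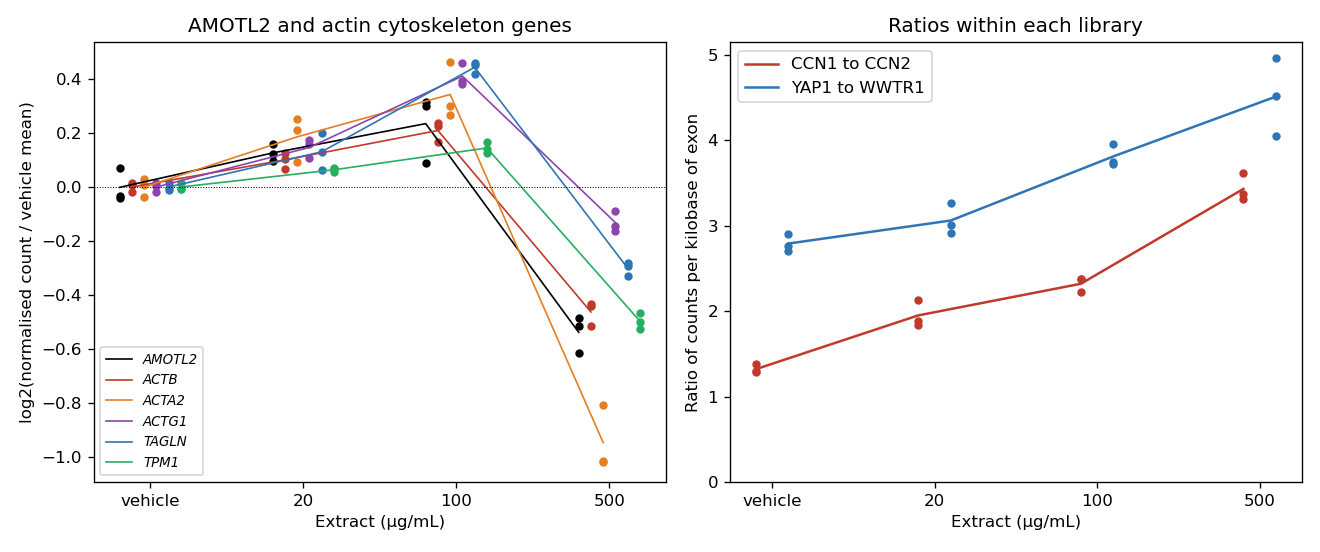
Left, log2 of the normalised count over the vehicle mean for AMOTL2 and 5 actin cytoskeleton genes, and right, the ratios of counts per kilobase of CCN1 to CCN2 and of YAP1 to WWTR1 in each library, by extract dose in µg/mL. Points are libraries and lines join means. All 6 genes on the left are highest at 100 µg/mL and below vehicle at 500 µg/mL, while both mean ratios on the right increase at every step. The 5 actin cytoskeleton genes are a selection from a list of 17, and others of that list had other courses. FLNA stayed above vehicle at 500 µg/mL, FHL1 and FHL2 were highest there, and VCL, MRTFA and MRTFB were highest in vehicle.

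The rest of the pathway was described with 7 lists written from general knowledge, with earlier results of these data known. They held 101 genes in all, with LATS2 and PTPN14 in 2 lists each and none of the 9 genes. Genes named from them were mostly picked by the size of their change among DEGs, so their p-values are given as a description. Counts of DEGs are over all list genes tested. Each list's median log2 fold change is over members with a mean of at least 10. For such genes, the median of all genes was 0.00 in each comparison. Every list count below stands beside these shares of all tested genes. At the high dose 18.2% were DEGs (8.66% higher and 9.57% lower). The share was 3.81% at the medium dose, 0.118% at the low dose and 10.2% from the medium to the high dose. No set test was run, and nothing is read from the list counts. At the low dose DESeq2 and edgeR called 0 genes in each of the 7 lists, with 1 to 8 genes of a list at an unadjusted p under 0.05.

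Of 18 other YAP and TAZ targets, 1 rose and 4 fell at the high dose, with a median of 0.02. GADD45B (ENSG00000099860), a stress-induced growth arrest gene, rose from 220 ± 29.4 to 453 ± 15 normalised counts (log2 1.04, SE 0.108, p 5.87e-21 after DESeq2 adjustment). CCDC80, a matrix protein, fell from 2387 ± 35.3 to 1478 ± 41.8 (log2 -0.69, SE 0.0454, p 2.85e-51 after DESeq2 adjustment). TGFB2, a TGF-beta ligand, fell from 542 ± 18.3 to 340 ± 13.4 (log2 -0.67, SE 0.083, p 3.87e-15 after DESeq2 adjustment), and RBMS3, an RNA-binding protein, from 437 ± 32 to 283 ± 11.9 (log2 -0.63, SE 0.0954, p 2.17e-10 after DESeq2 adjustment). ARHGEF17, named after its values were seen, was the other that fell (-0.60). At the medium dose the median was 0.11, and 2 genes rose. These were F3, the gene of tissue factor, from 2714 ± 143 to 4196 ± 93.7 (log2 0.63, SE 0.0404, p 1.12e-52 after DESeq2 adjustment) and GADD45B (log2 0.61, SE 0.111, p 5.28e-07 after DESeq2 adjustment). Either scaling by total counts, which left 0, or omitting vehicle replicate 2 or medium dose replicate 1, which left 1, lowered that count. As for ANKRD1, the highest mean of F3 was with 100 µg/mL, and it had 3439 ± 61.8 at the high dose, lower than at the medium dose (log2 -0.29, SE 0.0398, p 4.68e-12 after DESeq2 adjustment) though short of the fold threshold. From the medium to the high dose 15 of the 18 had a negative value, and 2, TGFB2 and RBMS3, were DEGs.

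In the Hippo kinase cascade, 1 of 19 genes rose and 3 fell at the high dose, with a median of 0.22. STK4, the kinase MST1, rose from 1037 ± 36.6 to 1593 ± 21.7 (log2 0.62, SE 0.0542, p 5.04e-29 after DESeq2 adjustment). The genes that fell act upstream of the kinases. Other genes, named after their values were seen, differed in both directions short of the fold threshold. FRMD6 (0.50), WWC3 (0.40) and WWC2 (0.37) were higher, and DCHS1 (-0.43) and NF2 (-0.38) lower. Of the 19 genes, 11 had a positive and 8 a negative value. FAT4 and FAT1, giant cadherins, fell from 1163 ± 55.3 to 570 ± 52.5 (log2 -1.03, SE 0.074, p 7.07e-43 after DESeq2 adjustment) and from 9624 ± 287 to 4873 ± 171 (log2 -0.98, SE 0.0318, p 1.54e-207 after DESeq2 adjustment). WWC1, the scaffold KIBRA, fell from 971 ± 22.9 to 588 ± 27 (log2 -0.72, SE 0.0669, p 5.05e-26 after DESeq2 adjustment). The LATS kinases themselves did not meet the fold threshold, at 0.23 for LATS1 and 0.23 for LATS2. At the medium dose 0 genes were called in DESeq2 and 0 in edgeR, with 11 at an unadjusted p under 0.05.

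Of 14 partners of YAP and TAZ, 5 fell and none of the 13 tested rose at the high dose, with a median of -0.52, and 12 of 13 had a negative value. TEAD2 fell from 218 ± 12.2 to 108 ± 9.52 (log2 -1.01, SE 0.142, p 6.19e-12 after DESeq2 adjustment), while TEAD1, the most abundant TEAD gene by count, went from 5919 ± 54.8 to 4949 ± 136 (-0.26), short of the threshold. AMOT, the founding angiomotin, fell from 291 ± 7.47 to 146 ± 12, which was 50.1% of vehicle (p 2.92e-14 after DESeq2 adjustment). VGLL4, which competes with YAP for TEAD, fell from 1457 ± 88.6 to 861 ± 54.4 (log2 -0.76, SE 0.0657, p 1.62e-29 after DESeq2 adjustment). Opposite strand genes cover 23.8% of its exon bases. VGLL3 (-0.63) and VGLL2 (-0.69), named after their values were seen, were the others. Without high dose replicate 2 the count was 3. VGLL1 had 0 counts in every library. With 100 µg/mL 0 were called in DESeq2 and 0 in edgeR, with 6 at an unadjusted p under 0.05.

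**Figure D4:**
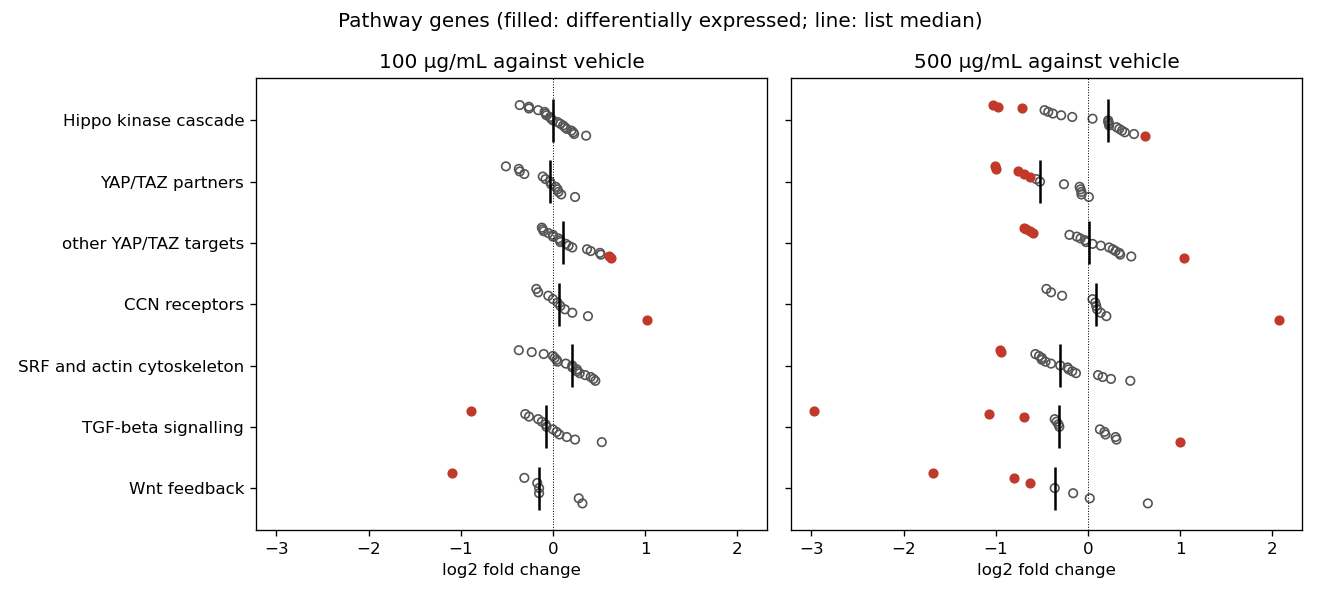
log2 fold change against vehicle (horizontal axes) of the genes of 7 pathway lists that average at least 10 normalised counts, at 100 µg/mL (left) and 500 µg/mL (right). Filled points are DEGs, open points are not, and vertical lines are list medians, which for the SRF and actin list is 0.21 on the left and -0.30 on the right.

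Actin regulates YAP, and the SRF coactivator MRTF shares many of its targets. The list of 17 SRF and actin cytoskeleton genes had a median of 0.21 with 100 µg/mL and -0.30 with 500 µg/mL. At the high dose 2 fell, MRTFA from 1582 ± 16 to 822 ± 31.4 (log2 -0.95, SE 0.0543, p 1.63e-66 after DESeq2 adjustment) and ACTA2 from 1751 ± 39 to 911 ± 77.7 (log2 -0.94, SE 0.065, p 3.84e-46 after DESeq2 adjustment), and with scaling by total counts the number was 6. From the medium to the high dose 4 fell in DESeq2 and 5 in edgeR, and 15 of 17 had a negative value. Those 4 were ACTA2 (-1.29), TAGLN (-0.74), ACTB (-0.67) and TPM1 (-0.64), of which TAGLN and TPM1 were named after their values were seen. ACTA2 shares 36.0%, TAGLN 34.1% and TPM1 22.7% of exon bases with opposite strand genes, and ACTB 0%. SRF was at 1684 ± 52.8 with 100 µg/mL and 1682 ± 72 with 500 µg/mL, against 1411 ± 44.5 in vehicle. With 100 µg/mL 0 genes of the list were called in DESeq2 and 0 in edgeR, with 12 at an unadjusted p under 0.05.

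Of the 11 genes for receptors of CCN proteins, 1 rose and none of the 10 tested fell at the high dose, with a median of 0.08. Of the 10, 7 had a positive and 3 a negative value, the lowest at -0.45. Those 3, LRP1, LRP6 and SDC4, named after their values were seen, were short of the fold threshold. ITGB3 (ENSG00000259207), the integrin beta subunit that pairs with alpha V to bind CCN1 and CCN2, was at 239 ± 11 normalised counts in vehicle, 256 ± 8.63 with 20 µg/mL, 485 ± 4.85 with 100 µg/mL and 1003 ± 49.1 with 500 µg/mL. It rose at the medium dose (log2 1.02, SE 0.0907, p 1.64e-27 after DESeq2 adjustment) and the high dose (log2 2.07, SE 0.0864, p 8.69e-125 after DESeq2 adjustment), and from the medium to the high dose (log2 1.05, SE 0.078, p 1.16e-39 after DESeq2 adjustment). Its partner ITGAV was at 0.00 and 0.09 and ITGB1 at 0.05 and 0.08 on the log2 scale at these doses, short of the threshold.

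TGF-beta signalling, which induces CCN2, had a median of -0.31 over 13 genes at the high dose with 1 higher and 3 lower. TGFB3, a ligand, fell from 418 ± 28.1 in vehicle to 225 ± 3.3 at the medium dose (log2 -0.89, SE 0.11, p 1.76e-14 after DESeq2 adjustment) and 53.8 ± 6.24 at the high dose (log2 -2.97, SE 0.148, p 7.68e-88 after DESeq2 adjustment). PMEPA1, a target that dampens the pathway, fell from 3822 ± 78.4 to 1822 ± 45.6 (log2 -1.07, SE 0.0377, p 4.62e-175 after DESeq2 adjustment), and the signal transducer SMAD3 from 2857 ± 31.9 to 1772 ± 62.9 (log2 -0.69, SE 0.0415, p 1.21e-60 after DESeq2 adjustment). BHLHE40, a transcriptional repressor, rose from 3344 ± 24.2 to 6696 ± 134 (log2 1.00, SE 0.0307, p 1.27e-231 after DESeq2 adjustment).

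Beside CCN4, 3 of 11 Wnt feedback genes fell at the high dose and none of the 10 tested rose, while edgeR called the same number of falls and 1 rise. TCF7, a transcription factor of the pathway, fell from 1514 ± 20.8 to 867 ± 56.2 (log2 -0.80, SE 0.0586, p 2.15e-41 after DESeq2 adjustment), and the negative regulator AXIN2 from 206 ± 9.23 to 133 ± 18.2 (log2 -0.63, SE 0.14, p 2.91e-05 after DESeq2 adjustment). NKD1, also a negative regulator and named after its values were seen, fell from 28.5 ± 6.48 to 8.81 ± 0.965 (log2 -1.68, SE 0.459, p 0.000757 after DESeq2 adjustment). It was called at the medium dose too (log2 -1.10, p 0.0389 after DESeq2 adjustment), a call lost without vehicle replicate 1, 2 or 3 or medium dose replicate 1 or 3. It was also lost in the fit with replicate number as a block. CTNNB1, the gene of beta-catenin, was at -0.36 at the high dose, short of the threshold.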

How the data were processed

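The authors prepared strand-specific mRNA libraries, sequenced both ends of fragments and, per the labels, used FastQC 0.11.9, Trim Galore 0.6.5, STAR 2.7.3a on GRCh38 and RSEM 1.3.3. The deposited values are RSEM expected counts per Ensembl gene, unscaled, which were rounded to whole numbers here. The treatment protocol in the labels describes another herb, so the extract is named from titles and treatment labels.

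Symbols, positions and exon lengths came from GENCODE 44, which held 93.2% of the IDs. DESeq2 1.42.0 in R 4.3.3 fitted the 12 libraries together by group, and its Wald test was two-sided. DEGs needed a p under 0.05 after Benjamini-Hochberg adjustment and a fold change over 1.5, with independent filtering at 0.05. edgeR 4.0.16, other scalings and filters, a replicate block and omission of each library were alternatives. The fit was tested on simulated data, with changes set past the 1.5-fold threshold in genes with a vehicle mean of at least 50. That test did not cover changes nearer to the threshold or genes of few counts. Replicates differed by more than counting noise (chi-square per degree of freedom of at least 2.06).

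The 9 genes and the lists were chosen with earlier results of these data known. Named were the 9 genes, CCN6, the 3 nearest genes in course to each with a mean of at least 100, and from each list up to 3 rises and 3 falls at the high dose and any call at lower doses, with a mean of at least 50. Lengths are unions of annotated exons, so per-kilobase levels depend on the annotation.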

Additional observations from a re-analysis of the deposited data

How the results depend on the processing

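Correlations of deviations between same-numbered libraries were -0.118 to -0.007 for pairs with vehicle and -0.019 to 0.221 among the doses. All 3 pairs of the low and medium dose, which were not compared here, were over 0.1 (0.124 to 0.193), but in no comparison made here were all 3, so the numbers were not taken as pairs. Of 12 libraries, 6 matched best with their own number. With the replicate block there were 3297 DEGs for high, 488 for medium and 11 for low against vehicle, and 1538 for high against medium. The block moved 1 list count by over 1.5 times, the medium dose Wnt feedback count, which became 0. That count was also 0 with independent filtering off and in the fit on 6 libraries. Without single libraries it ranged from 0 to 1. In the same fits the other YAP and TAZ targets at the medium dose ranged from 1 to 2, the YAP and TAZ partners at the high dose from 3 to 5, and the DEGs at the low dose from 6 to 13, with 6 without low dose replicate 1 or 2 and 7 without vehicle replicate 3.

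The edgeR test gave 809 DEGs at the medium dose (537 in DESeq2) and 30 at the low dose (11 in DESeq2). The low dose count was 18 with independent filtering off, 6 in the fit on 6 libraries and 7 without MT-RNR1 and MT-RNR2. With scaling by total counts the SRF and actin list had 6 DEGs at the high dose, and at the medium dose the partners had 1 and the other targets 0. This scaling was the one that moved values of the 9 genes by over 1 SD between replicates, in 12 cases.

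With the adjusted p alone, all genes gave 9040 calls for high, 4157 for medium and 306 for low against vehicle, and 6738 for high against medium. In that order the 9 genes gave 6, 6, 1 and 6, the Hippo kinase cascade 18, 9, 1 and 14, and the other targets 13, 9, 1 and 11. The receptors gave 9, 7, 1 and 6, the SRF and actin list 15, 12, 3 and 14, and the TGF-beta list 13, 8, 1 and 11. The partners gave 8 for high and 5 for medium against vehicle and 8 for high against medium, and the Wnt feedback list 4 at the medium dose and 4 between the upper doses. The fold threshold thus set most list counts, and independent filtering at 20 µg/mL kept genes with a mean under 263 out of the adjustment. Depth limited genes of few counts such as CCN5.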
